A study of Rattus norvegicus with 15 samples.

Results

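Valine tRNA fragments other than those of the anticodon CAC were described in the left ventricle of Sprague-Dawley rats. They were all entries of the deposited fragment table whose name begins with tRF-Val and whose anticodon is not CAC. This gave 27 fragments of the 714 listed, 8 with the anticodon AAC and 19 with the anticodon TAC. A control group of 5 rats was untreated, 5 rats received isoproterenol, a beta-adrenergic agonist used here to bring about myocardial ischemia, and 5 rats were on caloric restriction before they received isoproterenol. The last group is called restricted, and no group was restricted without the drug. Dose, duration, age and sex are not stated in the labels.

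Transfer RNAs carry amino acids to the ribosome and pair with the messenger RNA through their anticodon. Cells also cut them into shorter RNAs (tRFs), and cutting increases in many kinds of stress. The valine tRNA with AAC, whose first anticodon base is normally modified to inosine, is encoded in the nucleus only. The anticodon TAC (UAC in the RNA) is shared by a nuclear valine tRNA and by the valine tRNA that mitochondria encode for their own ribosomes. The human mitochondrial one is also built into the large subunit of the mitochondrial ribosome. The heart is rich in mitochondria. In the RefSeq annotation of the rat assembly GRCr8, 43 tRNA genes carried a valine AAC name, 6 a valine UAC name and 9 a valine CAC name. No fragment sequence was used here, so a Val-TAC fragment could not be assigned to the nuclear or the mitochondrial tRNA, and fragments with nearly the same sequence may have shared reads. In whole ventricle, fewer cells of a type and less RNA per cell cannot be told apart.

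Values are read counts scaled to the library total (CPM), as deposited. The totals ran from 269508 to 1128887 reads in control, from 106082 to 514565 in the isoproterenol group and from 163818 to 397574 in the restricted group. One read was therefore worth 0.886 to 9.43 CPM. The listed fragments of all tRNAs made up 28.6% ± 4.77 (SD, n = 5) of the total in control, 61.6% ± 13.6 with isoproterenol and 50.4% ± 13.6 in the restricted group. Of the 27 valine fragments, 17 had a median under 10 reads per library. The medians ran from 1 to 59 reads, so most single values are coarse. Over all listed fragments the median was 4 to 9 reads in every library, although the totals differed widely. The labels do not say whether reads were limited or collapsed before counting, and if they were, CPM and the recovered reads would not be plain read abundance.

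In control ventricles the pool was almost entirely Val-TAC, and 5 Val-TAC fragments held 75.1% of it. tRF-Val-TAC-042 was the most abundant at 254 ± 38.8 CPM (SD, n = 5), followed by tRF-Val-TAC-030 at 186 ± 23.6, tRF-Val-TAC-028 at 173 ± 66.7, tRF-Val-TAC-026 at 171 ± 18.8 and tRF-Val-TAC-038 at 153 ± 101 CPM. The ranges of mean ± SD of these neighbours overlapped, apart from that of tRF-Val-TAC-042 set against tRF-Val-TAC-030 and tRF-Val-TAC-026. The most abundant Val-AAC fragment, tRF-Val-AAC-010, came eighth at 31.9 ± 26.6 CPM. The other 7 Val-AAC fragments averaged from 1.48 CPM (tRF-Val-AAC-023) to 14.7 CPM (tRF-Val-AAC-007). The lowest of all was tRF-Val-TAC-008 at 1.23 ± 2.28 CPM.

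The balance of the anticodons differed between control and the treated groups. Summed Val-AAC fragments were at 135, 42.4, 126, 25.7 and 110 CPM in control replicates 1 to 5, at 293, 234, 575, 621 and 286 CPM with isoproterenol and at 293, 345, 441, 297 and 207 CPM in the restricted group. All 10 treated libraries lay above all 5 controls on this scale. Summed Val-TAC fragments were at 1545, 1136, 1150, 829 and 1132 CPM in control, at 891, 1414, 1763, 743 and 1166 with isoproterenol and at 2204, 1607, 1423, 1400 and 1686 in the restricted group. The ranges of both treated groups overlapped that of control. As a share of the reads of all listed fragments, summed Val-AAC was 0.0298% ± 0.0160 (SD, n = 5) in control, 0.0666% ± 0.0315 with isoproterenol and 0.0648% ± 0.0192 in the restricted group, and the isoproterenol range then overlapped control. Summed Val-TAC was 0.408% ± 0.0807, 0.212% ± 0.109 and 0.358% ± 0.149 of the listed reads, with overlap of control by both treated groups. Its isoproterenol mean was thus near that of control by CPM and below it by this share.

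The log2 ratio of the summed Val-AAC to the summed Val-TAC level does not depend on the library total as a divisor. It was -3.51, -4.74, -3.19, -5.01 and -3.36 in control replicates 1 to 5, with a mean of -3.96 ± 0.85 (SD, n = 5). With isoproterenol it was -1.60, -2.59, -1.62, -0.26 and -2.03, with a mean of -1.62 ± 0.86. In the restricted group it was -2.91, -2.22, -1.69, -2.24 and -3.03, with a mean of -2.42 ± 0.55. Neither treated group overlapped the controls, and the treated groups overlapped each other. This separation rested in part on single fragments. Without tRF-Val-AAC-010 and tRF-Val-TAC-038, the most abundant of each anticodon over the 15 libraries, replicate 2 of both treated groups lay below control replicate 3. tRF-Val-AAC-010 held 32.0% ± 18.0 of the Val-AAC reads in control, 51.1% ± 16.4 with isoproterenol and 30.3% ± 20.5 in the restricted group (SD, n = 5). As a share of the Val-AAC and Val-TAC reads, Val-AAC was 6.68% ± 3.16 in control, 25.8% ± 11.9 with isoproterenol and 16.3% ± 5.18 in the restricted group. The highest single library was isoproterenol replicate 4 at 45.5% (95% Wilson interval 41.0 to 50.2) and the lowest was control replicate 4 at 3.01% (2.10 to 4.28). These sums are given with no test, since the fragments were chosen with earlier results known. Without tRF-Val-TAC-042, tRF-Val-TAC-030 and tRF-Val-TAC-026, a choice made after their values were seen, the ratio overlapped between the groups, at -3.53 to -2.23 in control, -2.35 to -0.01 with isoproterenol and -2.84 to -1.60 in the restricted group. Among the controls the lowest ratios belonged to the largest totals, replicates 4 and 2. With isoproterenol the lowest belonged to replicate 2, with 127991 reads, and the highest to replicate 4, with 328607.

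Isoproterenol was compared with control to ask which valine fragments differ in the ischemic ventricle. The test was limma on log2(CPM + 1) over the 707 listed fragments that reached 1 CPM in 5 or more libraries, and all 27 valine fragments entered it. A fragment is called changed where the Benjamini-Hochberg adjusted p over all 707 was under 0.05. By this test 9 of the 27 rose and 3 fell, against 35.5% higher, 12.4% lower and 47.9% in either direction among all fragments tested, so the overall shares were close to the background. The groups did not overlap in 5 fragments that were higher and 2 that were lower, against 19% and 8.49% of all. By anticodon, 4 of 8 Val-AAC fragments rose and 0 fell, with 6 at an unadjusted p under 0.05, all higher (background 42.9% higher, 56.9% in either direction), while 5 of 19 Val-TAC fragments rose and 3 fell. The difference between the anticodons was not tested, and with 8 fragments a count of 0 falls is near the background. The median log2 difference was 1.92 in Val-AAC and 0.78 in Val-TAC, beside 1.26 over all fragments. With median-of-ratios scaling, which takes the typical fragment as unchanged, the median of all fragments was 0.15, that of Val-AAC 1.07 and that of Val-TAC -0.18. Then 2 Val-AAC fragments rose, and 1 Val-TAC fragment rose and 5 fell, against a background of 16.1% higher and 19.7% lower. Scaling the listed fragments to 1 common total gave 1 rise, in Val-AAC, and 4 falls, in Val-TAC (background 13.9% and 17%).

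The number of valine fragments called for isoproterenol over control was 8 with the library total in the model (background 37.5%) and 14 with the replicate block (48.8%). On the recovered reads edgeR called 7 of the 11 it tested (68%), or 5 with TMM factors (44.4%), and DESeq2 called 7 (34.7%). Without control replicate 2, control replicate 4 or isoproterenol replicate 3, limma called 7 in place of 12. The share over all fragments was not computed for these fits, so the drop cannot be set against the background.

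The most abundant Val-AAC fragment, tRF-Val-AAC-010, rose. Its level was 47.6, 9.43, 29.7, 4.43 and 68.1 CPM in control replicates 1 to 5 and 178, 125, 189, 447 and 105 CPM with isoproterenol. Every isoproterenol library lay above every control, and replicate 4 stood far above the others. The log2 difference was 3.02 (SE 0.68, limma adjusted p = 0.000344), which was 1.76 higher than the value of the median fragment. tRF-Val-AAC-009 was at 11.0, 9.43, 11.1, 1.77 and 2.62 CPM in control and at 22.3, 31.3, 66.0, 97.4 and 50.5 CPM with isoproterenol, again without overlap, a log2 difference of 2.81 (SE 0.69, limma adjusted p = 0.00087). Both calls held with median-of-ratios scaling (log2 difference 1.84 and 1.72, adjusted p = 0.0376 and 0.0199) and with the log2 library total in the model (2.81 and 2.41, adjusted p = 0.0044 and 0.0035). With the listed fragments scaled to 1 common total, tRF-Val-AAC-009 did not pass (1.82, adjusted p = 0.0689).

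The other Val-AAC fragments were lower in level. tRF-Val-AAC-003 rose from 4.37 ± 2.35 to 20.5 ± 10.4 CPM (log2 difference 2.04, limma adjusted p = 0.0184), without overlap. tRF-Val-AAC-023 rose from 1.48 ± 3.32 to 14.7 ± 19.7 CPM (2.22, limma adjusted p = 0.0461). It rested on 17 reads against 2, a ratio of 15.6 (95% exact counting interval 3.71 to 140).

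tRF-Val-AAC-021 was at 29.3, 0, 26.0, 4.43 and 7.86 CPM in control and at 11.1, 31.3, 123, 12.2 and 27.2 CPM with isoproterenol. tRF-Val-AAC-022 was at 18.3, 0, 26.0, 0.886 and 21.0 CPM and at 18.6, 23.4, 84.8, 12.2 and 19.4 CPM. Their groups overlapped and isoproterenol replicate 3 was the highest of both, with log2 differences of 1.77 and 1.80 that did not pass (limma adjusted p = 0.0566 each). Both passed without control replicate 1 or 3 or isoproterenol replicate 4, tRF-Val-AAC-021 also without isoproterenol replicate 1, and tRF-Val-AAC-022 also without control replicate 5. tRF-Val-AAC-002 (1.64 ± 3.20 to 7.38 ± 7.60 CPM) and tRF-Val-AAC-007 (14.7 ± 6.50 to 24.4 ± 16.8 CPM) did not pass either (limma adjusted p = 0.123 and 0.581).

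The fragments that fell with isoproterenol were 3 of the 4 most abundant in control, all Val-TAC. tRF-Val-TAC-042 was at 293, 269, 193, 274 and 241 CPM in control replicates 1 to 5 and at 48.3, 93.8, 37.7, 33.5 and 142 CPM with isoproterenol, without overlap. The log2 difference was -2.03 (SE 0.59, limma adjusted p = 0.00442), or -3.29 relative to the median fragment. tRF-Val-TAC-030 was at 209, 198, 148, 196 and 178 CPM and at 48.3, 54.7, 28.3, 42.6 and 157 CPM. Here only isoproterenol replicate 5 reached into the control range, and the log2 difference was -1.73 (SE 0.60, limma adjusted p = 0.0171). tRF-Val-TAC-026 was at 157, 179, 148, 172 and 197 CPM and at 52.0, 70.3, 47.1, 39.6 and 113 CPM, without overlap, with a log2 difference of -1.49 (SE 0.58, limma adjusted p = 0.0313).

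All 3 falls were also called with median-of-ratios scaling (-3.27, -2.95 and -2.72 for tRF-Val-TAC-042, tRF-Val-TAC-030 and tRF-Val-TAC-026). By edgeR's quasi-likelihood test on the recovered reads they were called at -1.81, -1.43 and -1.38. With the library total in the model, tRF-Val-TAC-030 did not pass (-1.20, adjusted p = 0.0534). tRF-Val-TAC-026 did not pass without control replicate 2 or 5 or isoproterenol replicate 1, 3 or 4, where its log2 difference ran from -1.47 to -1.34 (limma adjusted p = 0.0535 to 0.0734). Together the 3 fragments held 54.8% ± 14.2 of the Val-TAC reads in control, 17.9% ± 10.6 with isoproterenol and 15.4% ± 10.8 in the restricted group, as a description of fragments chosen for their fall.

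Other Val-TAC fragments went the opposite way in the same ventricles. tRF-Val-TAC-014 was at 29.3, 37.7, 22.3, 5.31 and 47.2 CPM in control and at 100, 156, 368, 60.9 and 56.4 CPM with isoproterenol, without overlap, a log2 difference of 2.26 (SE 0.63, limma adjusted p = 0.00293). It was called with median-of-ratios scaling as well (1.06, adjusted p = 0.0363), but not with the listed fragments scaled to 1 common total (1.21, adjusted p = 0.215). tRF-Val-TAC-020 was at 11.0, 2.36, 3.71, 0.886 and 7.86 CPM and at 14.8, 23.4, 28.3, 42.6 and 15.5 CPM, again without overlap, a log2 difference of 2.27 (SE 0.73, limma adjusted p = 0.00962) that did not pass with either scaling (1.28 and 1.35, adjusted p = 0.082 and 0.235).

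tRF-Val-TAC-023 was at 106, 25.9, 92.8, 26.6 and 65.5 CPM in control and at 122, 273, 405, 122 and 54.4 CPM with isoproterenol. Only isoproterenol replicate 5 lay within the control range, and the log2 difference was 1.51 (SE 0.59, limma adjusted p = 0.0327). This call was lost with median-of-ratios scaling (0.28), with the listed total (0.44), with the library total in the model (0.60), and without control replicate 2 or 4 or isoproterenol replicate 2 or 3 (1.17 to 1.31). tRF-Val-TAC-012 rose from 4.90 ± 2.84 to 33.7 ± 45.1 CPM and tRF-Val-TAC-008 from 1.23 ± 2.28 to 10.5 ± 8.53 CPM (limma adjusted p = 0.0348 and 0.0366). The latter rested on 10 reads against 3, a ratio of 6.13 (95% exact counting interval 1.58 to 34.7).

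The remaining 11 Val-TAC fragments did not pass, and they include another 2 of the most abundant. tRF-Val-TAC-028 was at 260, 167, 182, 72.6 and 181 CPM in control and at 85.4, 156, 47.1, 60.9 and 307 CPM with isoproterenol. Its log2 difference of -0.62 (limma adjusted p = 0.37) became -1.85 and -1.70 with median-of-ratios and listed-total scaling, and both passed (adjusted p = 0.017 and 0.0397). tRF-Val-TAC-038 was at 278, 123, 230, 26.6 and 107 CPM and at 230, 313, 368, 180 and 11.7 CPM. Its log2 difference of 0.27 (limma adjusted p = 0.763) had the opposite sign under either scaling and passed as a fall with the library total in the model (-1.21, adjusted p = 0.0477). The other 9, from tRF-Val-TAC-001 (24.7 to 35.0 CPM) to tRF-Val-TAC-037 (32.5 to 79.0 CPM), had limma adjusted p-values from 0.187 to 0.918. Of these, tRF-Val-TAC-005 was called as a fall with median-of-ratios scaling and by DESeq2, and tRF-Val-TAC-027 as a rise with the library total in the model.

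The restricted group was compared with control as the second contrast with untreated ventricles, and it shares the control libraries with the first. Of the 27 fragments 15 rose and 2 fell, against 47.7% higher, 10.7% lower and 58.4% in either direction among the 707 tested. The groups did not overlap in 7 that were higher and 1 that was lower, against 31.1% and 9.19% of all. Val-AAC had 7 of 8 higher and 0 lower, with a median log2 difference of 2.59, and Val-TAC had 8 of 19 higher and 2 lower, with a median of 1.31, beside 1.60 over all fragments. These rises depend on the scale: with median-of-ratios scaling, where the median of all fragments was 0.24, 0 Val-AAC fragments rose and 1 fell, and 1 Val-TAC fragment rose and 4 fell, against 15.1% higher and 20.7% lower. By that test 3 Val-AAC fragments were higher and 1 lower at an unadjusted p under 0.05 (background 23.6% and 24%). With the listed fragments scaled to 1 common total, 5 Val-AAC fragments rose, and 5 Val-TAC fragments rose and 3 fell, against 28.1% higher and 14.4% lower. The number called was 11 with the library total in the model (background 47.8%), 17 with the replicate block (59.5%), 6 of 11 by edgeR (75.2%), 4 of 11 with TMM factors (47.6%) and 6 by DESeq2 (37.7%).

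tRF-Val-TAC-014, at 397, 158, 189, 195 and 126 CPM in restricted replicates 1 to 5, lay above every control, a log2 difference of 3.03 (SE 0.63, limma adjusted p = 0.00015). It was the only one of the 15 rises that was also called with median-of-ratios scaling (1.46, adjusted p = 0.0057). tRF-Val-TAC-006 was at 7.32, 2.36, 3.71, 0 and 5.24 CPM in control and at 97.7, 12.6, 27.0, 47.0 and 18.0 CPM in the restricted group. These did not overlap, and the log2 difference was 3.07 (SE 0.88, limma adjusted p = 0.00325; 2.06, adjusted p = 0.0584 with median-of-ratios scaling). tRF-Val-TAC-023, at 421, 194, 216, 246 and 436 CPM, also lay above every control, a log2 difference of 2.38 (SE 0.59, limma adjusted p = 0.00107; 0.78, adjusted p = 0.101 with median-of-ratios scaling).

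Among Val-AAC fragments, tRF-Val-AAC-023 and tRF-Val-AAC-002 had the fewest control reads. tRF-Val-AAC-023 was at 0, 0, 7.42, 0 and 0 CPM in control and at 12.2, 7.55, 31.5, 3.62 and 8.99 CPM in the restricted group, a log2 difference of 2.86 (SE 0.94, limma adjusted p = 0.0089). tRF-Val-AAC-002 was at 7.32, 0, 0, 0.886 and 0 CPM and at 18.3, 2.52, 18.0, 21.7 and 8.99 CPM, a log2 difference of 2.84 (SE 0.91, limma adjusted p = 0.0073). They rested on 15 reads against 2, a ratio of 14.5 (95% exact counting interval 3.37 to 131), and on 16 reads against 3, a ratio of 10.3 (2.95 to 55.2). Control replicate 3 was the sole control with reads of the first, and the groups of both overlapped.

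tRF-Val-AAC-021 was at 42.7, 57.9, 113, 36.2 and 27.0 CPM in the restricted group and tRF-Val-AAC-022 at 85.5, 25.2, 108, 29.0 and 40.5 CPM. Both rose over control by limma (log2 difference 2.58 and 2.76, adjusted p = 0.00485 and 0.00348), but neither passed with median-of-ratios scaling (1.24 and 1.53) or with the library total in the model (1.90 and 1.77, adjusted p = 0.0528 each). tRF-Val-AAC-009 was at 36.6, 15.1, 40.5, 43.4 and 45.0 CPM, above every control (2.34, limma adjusted p = 0.00391), and tRF-Val-AAC-003 rose to 33.6 ± 21.7 CPM (2.60, limma adjusted p = 0.00246). tRF-Val-AAC-010, at 18.3, 211, 94.6, 109 and 54.0 CPM, overlapped the controls and was called with a log2 difference of 1.73 (SE 0.68, limma adjusted p = 0.0261). That call was lost with median-of-ratios scaling (0.20), with the listed total (0.98), with the library total in the model (1.55), and without control replicate 2 or 4 or restricted replicate 2, 3 or 4 (1.22 to 1.64). tRF-Val-AAC-007, at 9.87 ± 6.54 CPM against 14.7 ± 6.50 in control, did not pass (-0.89, limma adjusted p = 0.332). It was called as a fall with median-of-ratios scaling and by DESeq2.

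The 3 Val-TAC fragments that fell with isoproterenol were set against the same controls in the restricted group, so these values are no independent check. tRF-Val-TAC-030 was at 30.5, 133, 18.0, 50.7 and 63.0 CPM, below every control, a log2 difference of -1.94 (SE 0.60, limma adjusted p = 0.0061). tRF-Val-TAC-042, at 42.7, 219, 36.0, 134 and 85.4 CPM, overlapped the controls through replicate 2, with a log2 difference of -1.59 (SE 0.59, limma adjusted p = 0.0193) that did not pass without restricted replicate 1 or 3 (-1.35 and -1.29, adjusted p = 0.0636 and 0.0732). tRF-Val-TAC-026, at 36.6, 151, 31.5, 94.1 and 98.9 CPM, did not pass (-1.27, limma adjusted p = 0.055). All 3 were called as falls with median-of-ratios scaling. The other abundant Val-TAC fragments did not pass: tRF-Val-TAC-038, at 641, 113, 450, 246 and 270 CPM, had a log2 difference of 1.31 (limma adjusted p = 0.0969; 1.65 and 0.0459 without restricted replicate 2), and tRF-Val-TAC-028, at 189, 402, 131, 127 and 288 CPM, one of 0.36 (0.604). Both turned negative with median-of-ratios scaling.

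Among the less abundant Val-TAC fragments, tRF-Val-TAC-002 rose in the restricted group from 4.28 ± 5.88 to 29.2 ± 15.7 CPM, tRF-Val-TAC-012 from 4.90 ± 2.84 to 36.1 ± 22.8 CPM and tRF-Val-TAC-020 from 5.16 ± 4.17 to 16.9 ± 6.13 CPM (limma adjusted p = 0.0038, 0.00485 and 0.0331). tRF-Val-TAC-008 and tRF-Val-TAC-009 rose to 12.1 and 14.3 CPM, the former on 13 reads against 3 (ratio 8.37, 95% exact counting interval 2.30 to 45.8). The remaining 6, which include tRF-Val-TAC-001, tRF-Val-TAC-027 and tRF-Val-TAC-037, did not pass (limma adjusted p = 0.106 to 0.992). Of these, tRF-Val-TAC-005 was called as a fall with median-of-ratios scaling and by DESeq2.

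The treated groups were set against each other to ask what caloric restriction before the drug changed. No valine fragment passed: 0 of 27 by limma, where the background was 0% of 707. At an unadjusted p under 0.05 there were 2 fragments, both higher and both Val-TAC, against 16.4% of all fragments. edgeR on the recovered reads called 0 of the 11 valine fragments it tested, against 0.288% of all, and DESeq2 called 0 of 27, against 4.76%. With the library total in the model limma called 0 of 27, against 6.08%. The 2 groups overlapped in all 27 fragments, where 0.99% of all fragments were apart and higher and 0.707% apart and lower. The median log2 difference was 0.60 in Val-AAC and 0.62 in Val-TAC, beside 0.44 over all fragments.

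The smallest p belonged to tRF-Val-TAC-006. It was at 3.71, 0, 75.4, 6.09 and 3.89 CPM with isoproterenol and at 97.7, 12.6, 27.0, 47.0 and 18.0 CPM in the restricted group, a log2 difference of 2.28 (95% interval 0.52 to 4.05, limma adjusted p = 0.233). Isoproterenol replicate 3 stood within the restricted range, and the other 4 lay below it. tRF-Val-TAC-002 was at 7.42, 7.81, 18.9, 3.04 and 1.94 CPM and at 48.8, 5.03, 31.5, 29.0 and 31.5 CPM, a log2 difference of 1.82 (0.16 to 3.48, limma adjusted p = 0.268). tRF-Val-AAC-010 was the third, lower in the restricted group, with a log2 difference of -1.29 (-2.65 to 0.08, limma adjusted p = 0.341).

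For the 3 Val-TAC fragments that fell with isoproterenol, the difference between the treated groups was near 0 with wide intervals. It was 0.44 (95% interval -0.74 to 1.63) for tRF-Val-TAC-042, -0.21 (-1.43 to 1.00) for tRF-Val-TAC-030 and 0.21 (-0.95 to 1.38) for tRF-Val-TAC-026. A difference of up to 1.63 on the log2 scale in tRF-Val-TAC-042 therefore stays within its interval.

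The Val-TAC fragments also differed in how they moved with the library total. In a limma model with the 3 groups and the log2 total, a slope of 0 means that CPM did not depend on the total, and a negative slope that CPM was lower in libraries with larger totals. The median slope was -0.64 over all fragments, -0.38 in Val-AAC and -0.78 in Val-TAC. The slope was -1.67 (95% interval -2.18 to -1.16) for tRF-Val-TAC-038, -1.70 (-2.29 to -1.11) for tRF-Val-TAC-037, -1.04 (-1.51 to -0.57) for tRF-Val-TAC-014 and -1.03 (-1.43 to -0.62) for tRF-Val-TAC-023. It was 0.59 (0.07 to 1.10) for tRF-Val-TAC-030, 0.44 (-0.10 to 0.97) for tRF-Val-TAC-042 and 0.34 (-0.14 to 0.83) for tRF-Val-TAC-026. In control replicate 4, the library with the largest total, 11 of the 27 fragments lay below every other control, among them tRF-Val-TAC-038 with 30 reads. The share over all fragments was not computed, so this count is not a trait of the valine fragments. In that library the 3 that fell with isoproterenol lay within the range of the other controls. They had 309, 221 and 194 reads for tRF-Val-TAC-042, tRF-Val-TAC-030 and tRF-Val-TAC-026. These slopes were read after the values were seen, and their part in the group differences was not tested beyond the model with the total.

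Other lists of tRNA fragments were set beside the valine fragments, by counts and medians only. Of 25 Val-CAC tRFs, which come from the third valine anticodon and from nuclear genes, 13 rose and 0 fell with isoproterenol over control, with a median log2 difference of 1.74. Val-CAC was far more abundant, at a summed 2814 ± 1322 CPM in control and 13696 ± 6373 CPM with isoproterenol. Of 7 valine tiRNAs, longer pieces cut in the anticodon loop, 4 rose and 0 fell. tRFs of the 7 other anticodons that begin with A and are nuclear only (Ala-AGC, Arg-ACG, Ile-AAT, Leu-AAG, Pro-AGG, Ser-AGA and Thr-AGT) had 35 of 83 tested higher and 0 lower, with a median of 1.56. The 12 other anticodons that begin with T and are used by mitochondria (Ala-TGC, Arg-TCG, Gln-TTG, Glu-TTC, Gly-TCC, Leu-TAA, Leu-TAG, Lys-TTT, Pro-TGG, Ser-TGA, Thr-TGT and Trp-TCA, of which Trp-TCA reads tryptophan in mitochondria only) had 63 of 217 higher and 44 lower, with a median of 0.49. The shares over all fragments were 35.5% higher and 12.4% lower. With only 7 tiRNAs, 0 falls is near that background, and the differences between the lists were not tested. With median-of-ratios scaling (background 16.1% and 19.7%) the counts were 5 higher and 0 lower in Val-CAC, 2 and 0 in the tiRNAs, 15 and 1 in the A-first list and 25 and 65 in the T-first list. For restricted over control, the counts were 15 higher and 0 lower of 25 in Val-CAC, 2 and 0 of 7 in the tiRNAs, 59 and 0 of 83 in the A-first list and 83 and 42 of 217 in the T-first list (background 47.7% and 10.7%). With median-of-ratios scaling (15.1% and 20.7%) they were 3 and 2, 0 and 0, 18 and 0, and 27 and 70, and 1 of the 7 tiRNAs, higher, had an unadjusted p under 0.05. For restricted over isoproterenol, limma called 0 in each of these lists, with 5 of 25, 2 of 7, 12 of 83 and 35 of 217 at an unadjusted p under 0.05, against 16.4% of all fragments.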

How the data were processed

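Small RNA libraries, 1 per rat, were made from total RNA of left ventricle after a kit treatment that removes RNA modifications, and gel products of 134 to 160 bp (inserts of 14 to 40 nt) were kept, per the labels' protocols. cutadapt and edgeR are named without version or role, per the submitters' processing notes. No aligner, tRNA reference or genome build is stated in the labels.

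The authors deposited CPM values; 100% of them were whole reads within a tolerance of 0.001 reads, which gave the library totals. Intervals from these reads cover counting error only. Groups were taken from the titles. The main test was limma 3.58.1 (trend) in R 4.3.3 on log2(CPM + 1), all 15 libraries in 1 model, two-sided, over the 707 of 714 fragments that reached 1 CPM in 5 or more libraries. Log2 differences are on this scale, which understates changes of low fragments. edgeR 4.0.16 (quasi-likelihood) on the recovered reads kept 347 fragments and called 236 between isoproterenol and control, 1 between the treated groups and 261 between restricted and control. DESeq2 1.42.0 was a further alternative. Only the main limma fit and edgeR without TMM factors were tested on simulated data. The simulated counts were proportional to the library total, which the measured ones were not.

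Fragments given library by library are the 3 most abundant of each anticodon, up to 4 rises and 4 falls per comparison, and the 3 smallest p where none passed. The fragments, lists and tests were chosen with earlier results of these data known. The labels do not say that rats of different groups with the same number were paired. Libraries of the same group all differed by more than sampling noise (chi-square over its degrees of freedom 7.52 or more). The p-values measure the spread between these libraries, and limma draws the spread of each fragment toward that of fragments of like level.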

Additional observations from a re-analysis of the deposited data

Results flagged for a closer look

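In a group of 5, a library whose gap to its nearest neighbour was over 0.71 of the group's range was taken as standing apart. This was looked for in 57 sets of 5 values (16 fragments, the anticodon sums and their ratio), and 10 were found. The limit gives about 1 in 20 by chance for normally distributed values only. CPM values that rest on few reads are not normal, and the sets share libraries. The 10 are therefore not read as an excess over chance. Isoproterenol replicate 4 was the highest of its group for tRF-Val-AAC-010 (447 CPM, next 189). Isoproterenol replicate 3, the library with the smallest total, was the highest for tRF-Val-AAC-021 (123, next 31.3), tRF-Val-AAC-022 (84.8, next 23.4) and tRF-Val-TAC-006 (75.4, next 6.09). Isoproterenol replicate 5, with the largest total of its group, was the highest for tRF-Val-TAC-030 (157, next 54.7). Restricted replicate 1 was the highest for tRF-Val-TAC-014 (397, next 195) and restricted replicate 2 the lowest for tRF-Val-AAC-009 (15.1, next 36.6). In control, replicate 1 was the highest for tRF-Val-TAC-002 (14.6, next 2.62) and tRF-Val-AAC-002 (7.32, next 0.886), and replicate 3 for tRF-Val-AAC-023 (7.42, the others at 0). The control values rest on few reads.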

How the results depend on the processing

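For isoproterenol versus control, 12 of 27 fragments were called (47.9% of all tested). The number was 8 with median-of-ratios scaling, of which 3 rises and 3 falls were among the 12 (background 16.1% higher, 19.7% lower). It was 5 with the listed fragments scaled to the same total, 1 higher and 4 lower (background 13.9% and 17%). edgeR called 7 of the 11 it tested (68%), or 5 with TMM factors (44.4%), and DESeq2 called 7 (34.7%). Leaving out 1 library gave 7 to 12 calls, with 7 without control replicate 2, control replicate 4 or isoproterenol replicate 3. For restricted versus control, 17 were called (58.4%). The number was 6 with median-of-ratios scaling, 1 higher and 5 lower (background 15.1% and 20.7%), and 11 with the log2 library total as a covariate (47.8%). It was 6 by edgeR (75.2%), 4 with TMM factors (47.6%) and 6 by DESeq2 (37.7%), and leaving out 1 library gave 13 to 18. The shares over all fragments were not computed for the fits that leave out 1 library. For restricted versus isoproterenol the number was 0 under every alternative run. The correlation of the deviations of same-numbered libraries from their group means ran from -0.119 to 0.253. This cannot show whether the libraries were paired, and the labels do not say. With the replicate block, 14 fragments were called for isoproterenol versus control (background 48.8%), with tRF-Val-AAC-021 and tRF-Val-AAC-022 added (limma adjusted p = 0.0394 and 0.0366). For restricted versus control 17 were called (59.5%), and 0 for restricted versus isoproterenol (0%). None of the 12 or the 17 calls was called in the opposite direction under the alternatives that were compared. The sign itself was followed for 32 pairs of a fragment and a comparison, under most of the alternatives. Of these pairs 18 were called, and the signs that turned were in pairs that had not been called. For tRF-Val-TAC-038, isoproterenol versus control, the log2 difference was -0.97 with median-of-ratios scaling, -0.81 with the listed total, -1.21 with the library total in the model and -0.26 to 1.15 leaving out 1 library. For restricted versus control it was -0.30 with median-of-ratios scaling and -0.0013 with the library total. For tRF-Val-TAC-028, restricted versus control, it was -1.26 and -0.43 with the 2 scalings. As a median over fragments, the Val-AAC to Val-TAC difference was -1.59 in control, -0.072 with isoproterenol and -0.40 in the restricted group, against summed ratios of -3.96, -1.62 and -2.42, which ran from -4.16 to -3.70, -1.96 to -1.38 and -2.60 to -2.27 leaving out 1 library. The cause of these changes was not tested. Depth limits the low fragments: 3 of the 27 had 3 or fewer reads over all controls.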

Other observations

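On the CPM scale, the 3 Val-TAC fragments that fell with isoproterenol were also the steadiest valine fragments among untreated rats. Their coefficient of variation over the 5 controls was 11.0% for tRF-Val-TAC-026, 12.7% for tRF-Val-TAC-030 and 15.3% for tRF-Val-TAC-042, and the lowest of the other 24 fragments was 37.5% (tRF-Val-TAC-027). tRF-Val-TAC-028 and tRF-Val-TAC-038, of like abundance, were at 38.7% and 65.9%, with control replicate 4 (72.6 and 26.6 CPM) below every other control in both. This order holds on the CPM scale only. The median-of-ratios factor was 0.174 in control replicate 4 and 0.496 to 0.802 in the other controls. With that scaling control replicate 4 was the highest control for all 3 fragments. They then varied more among the controls than tRF-Val-TAC-028 and tRF-Val-TAC-038 did. Isoproterenol replicate 5 and restricted replicate 2, the largest totals of their groups, had the highest levels of all 3 fragments (for tRF-Val-TAC-042, 142 and 219 CPM) and the lowest of tRF-Val-TAC-038 (11.7 and 113 CPM). Without the 3 fragments, summed Val-TAC was 548 ± 255 CPM in control, 994 ± 426 with isoproterenol and 1419 ± 403 in the restricted group (SD, n = 5). The log2 ratio of Val-AAC to these other 16 Val-TAC fragments was -2.75 ± 0.51, -1.33 ± 0.84 and -2.17 ± 0.61. These values were chosen after the data were seen and carry no test.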
